A study of Mus musculus with 4 samples.

Results

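The genes described here bind, move and sense zinc and iron in mouse fibroblasts. They comprise the metallothioneins Mt1 and Mt2, the zinc exporter Slc30a1 and the zinc-sensing transcription factor Mtf1, together with the ferritin chains Fth1 and Ftl1, the transferrin receptor Tfrc, the iron exporter Slc40a1 and the iron-regulatory proteins Aco1 and Ireb2. Members were all gene probes whose RefSeq accession maps to 1 of these 10 symbols, which gave 15 probes out of 55681 and 24 of the 59305 gene spots on each array. NIH-3T3 cells, an established line of mouse embryo fibroblasts that the labels give as wild type (WT), were grown to confluency with serum and profiled on 4 one-colour Agilent arrays. The groups were an untreated culture and cultures given 20 µM of AR7, 20 µM of CA39 or 20 µM of CA77 and collected after 24 h, with 1 array in each group. The compounds are related small molecules made to activate chaperone-mediated autophagy, the lysosomal uptake of single proteins, and the arrays were run to ask how they act on gene expression. They were dissolved in DMSO, and the control is labelled as without treatment, so a vehicle effect and an effect shared by all 3 compounds cannot be told apart. No group has a replicate, so no test was possible, and every difference below compares 2 arrays without a replicate check. The 3 comparisons share the untreated array. In bulk RNA, fewer cells of a kind and less RNA per cell cannot be told apart.

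Metallothioneins are small cysteine-rich proteins that hold zinc and copper. When free zinc is plentiful, MTF1 binds metal response elements in the promoters of Mt1, Mt2 and Slc30a1 and raises their transcription, so these mRNAs serve as a readout of zinc. Iron enters cells with transferrin through TFRC, is stored in a shell of FTH1 and FTL1 chains, and leaves through ferroportin, the product of Slc40a1. When iron is scarce, IRP1 (from Aco1) and IRP2 (from Ireb2) bind iron-responsive elements, which blocks translation of ferritin and ferroportin mRNA and stabilises Tfrc mRNA. Of these steps, an array shows mRNA amounts and not translation.

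The metal response elements are shown because the members that follow zinc share them. RefSeq promoter windows (GRCm38.p6, 250 bases before and 50 after the start) were found for 9 of the 10 members, all but Slc40a1. The core of the element was searched on both strands as TGCACNC or TGCGCNC. At least 1 core occurs in 25.7% of the 32851 windows of all genes, at least 2 in 7.11%, at least 3 in 1.97% and at least 4 in 0.517%. The windows of Mt2, Mt1 and Slc30a1 held 4, 3 and 2 cores. Among the others, Aco1 held 1 and the upstream Tfrc window held 2 that overlap each other, while Mtf1, Ftl1, Ireb2 and both Fth1 windows held 0. In the sequences below, each 30 bases long on the plus strand of its chromosome, the core is in capitals, and cores on the opposite strand read as the reverse complement.
Mt1, chr8:94179055-94179084: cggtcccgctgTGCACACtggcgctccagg
Mt1, chr8:94179080-94179109: ccagggagctcTGCACTCcgcccgaaaagt
Mt1, chr8:94179098-94179127: cgcccgaaaagTGCGCTCggctctgccaag
Mt2, chr8:94172384-94172413: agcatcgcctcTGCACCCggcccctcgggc
Mt2, chr8:94172479-94172508: cgcagacccttTGCGCTCagctcctttgct
Mt2, chr8:94172557-94172586, opposite strand: ggggggagggcGTGTGCAggctctgtccca
Mt2, chr8:94172611-94172640, opposite strand: gaattcgggtcGTGCGCAggcccaggggcg
Slc30a1, chr1:191906727-191906756, opposite strand: acgggggttccGAGTGCAaagcaaagtttt
Slc30a1, chr1:191906800-191906829, opposite strand: gcctccgggccGAGCGCAgtcgccgcggac
All 3 Mt1 cores lie close to the annotated start, whereas those of Mt2 are spread over the window. The core of the antioxidant response element, TGACNNNGC, which NRF2 (from Nfe2l2) recognises, occurs in 12.4% of all windows and was found once each in those of Mt2 and Slc30a1. A match to these letters describes the sequence and does not show that a factor is bound.

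Of the 15 member probes, 14 were well above background on every array, and a dim Mtf1 probe was on none. The share of all probes well above background ranged from 52.2% to 69.7% over the arrays. A tolerance of 0.16 on the log2 scale was set from the SD of repeat spots of 1 probe within an array. It stands for 1 SD of the difference between single spots, so spot error alone can give differences past it. It covers the error within an array and not that between cultures. On the slide, untreated occupied row 1 and all treated arrays row 2, and CA77 was read in scan 2, so a row effect cannot be told apart from one shared by the compounds. Of 8 fibroblast markers 7 were detected on every array and the last, Pdgfrb, with CA39 alone. Their levels shifted with CA39, where Lum was at log2 10.39 against 13.98 to 14.91 elsewhere, Fn1 at 17.98 against 16.30 to 16.52 and Col1a1 at 16.65 against 14.55 to 15.60. The CA39 array also stood apart in epithelial markers. Krt8 was at log2 10.04 there and between 7.30 and 7.67 elsewhere, and Epcam was detected with CA39 alone. Cdh1, the defining epithelial adhesion gene, stayed under the detection limit throughout. All 3 endothelial markers were detected on every array, as were the leukocyte gene Lyz2, the muscle gene Myod1 and the adipocyte gene Fabp4 (9.66 to 11.25). Of the other adipocyte markers, Plin1 was detected on untreated and CA77 and Adipoq on none. The leukocyte gene Ptprc was detected on untreated and CA77, and the muscle gene Myog on untreated alone. The part of these markers in the CA39 values below was not tested.

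By the brightest probe of each gene, 1 of the 10 members was past 2-fold with CA39, on the higher side, and 0 were with AR7 or CA77. Over all genes compared with CA39, 5.29% were past 2-fold, 3.86% higher and 1.43% lower. The corresponding shares were 3.06% for AR7 (2% higher and 1.07% lower) and 3.22% for CA77 (2.47% higher and 0.747% lower). Among the 20594 genes detected on all 4 arrays, a class that holds all 10 members, 3.37% were past 2-fold with CA39, 0.811% with AR7 and 0.845% with CA77. Smaller differences were counted against the tolerance of 0.16. With AR7, 3 members were higher and 3 lower, where the background of genes detected on all arrays was 16.2% higher and 20.8% lower, 36.9% in all. With CA39, 3 were higher and 3 lower against 23.6% and 33.5%, 57.1% in all. With CA77, 2 were higher and 2 lower against 18% and 26%, 43.9% in all. The 6, 6 and 4 members past the tolerance were thus not far from the background, and numbered 4 to 7, 4 to 7 and 3 to 4 under other settings that kept all 10 members. The median difference of the members was 0.06 (log2) for AR7, -0.0075 for CA39 and 0.04 for CA77, where all genes detected on the 4 arrays had medians of -0.01, -0.04 and -0.02. The largest member differences were those of Slc40a1, Aco1, Tfrc and, among second probes, Ftl1.

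**Figure D1:**
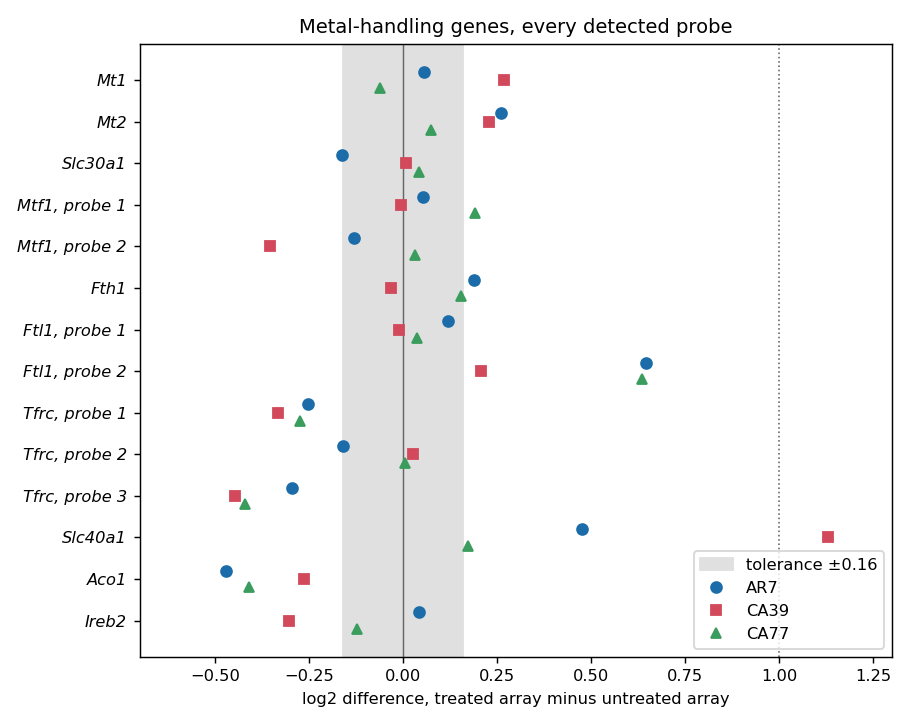
Log2 difference of each treated array from the untreated array (x axis) for the 14 detected probes of the 10 genes (y axis, probes of a gene ordered by brightness), with AR7 as circles, CA39 as squares and CA77 as triangles. The grey band is the tolerance of 0.16 from repeat spots and the dotted line marks 2-fold; Slc40a1 with CA39 is the only point past it, and Tfrc probes 1 and 3 and Aco1 lie left of the band with every compound.

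The iron exporter Slc40a1 carried the only member value past 2-fold. Its spot intensity was 1356 scanner units on the untreated array, 1988 with AR7, 3067 with CA39 and 1378 with CA77. CA39 stood highest and AR7 next, while CA77 and untreated were close. After normalization the difference from untreated was 1.13 (log2, 2.19-fold) with CA39, 0.48 (1.39-fold) with AR7 and 0.17 (1.13-fold) with CA77. CA39 lay 0.65 above AR7 and 0.96 above CA77, and AR7 lay 0.30 above CA77, so every step in the order CA39, AR7, CA77, untreated was larger than the tolerance. The last step was only just so, and was within it, at 0.12 to 0.14, under 3 other scalings. A difference at least as high as that of Slc40a1 was held by 1.67% of the 20594 genes detected on all arrays with CA39, by 2.55% with AR7 and by 16.3% with CA77.

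Slc40a1 has a single probe with a single spot, in grid row 26. Of the 27 detected spots within 3 rows and columns of it, 0 were past 2-fold with CA39 or AR7, and their median difference was 0.001 with CA39 and 0.08 with AR7. With CA77, 2 of the surrounding spots were past 2-fold. By the distance of log2 values centred over the 4 arrays, the genes nearest to Slc40a1 out of 884 with a range of at least 2-fold were Abcb9, Cyp27b1, Rnase4, Slc39a8 and Snx20, at distances of 0.10 to 0.19. The zinc and iron importer Slc39a8 is the only metal transporter among these 5, and its differences were 1.05 for CA39, 0.24 for AR7 and 0.13 for CA77. Its dim probe read 295 units on untreated and 586 with CA39. Over the settings its CA39 difference ranged from 0.92 to 1.16, so it was not past 2-fold in all of them.

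The metallothioneins differed little between the arrays. Their probes were very bright, at up to 39.9% (Mt1) and 34.3% (Mt2) of the scanner's saturation value, and whether this narrowed their differences was not tested. The Mt1 probe read 261096 units on untreated, 276325 with AR7, 311198 with CA39 and 226712 with CA77. Mt1 was thus highest with CA39 and lowest with CA77, and the whole range was 1.26-fold. The differences from untreated were 0.27 with CA39, 0.06 with AR7 and -0.06 with CA77, so CA39 and CA77 lay 0.33 apart. The Mt2 probe read 217198, 267297, 252068 and 209281 units in the same order of arrays. Mt2 was higher than untreated by 0.26 with AR7 and 0.23 with CA39, a difference between the 2 compounds of 0.03, and by 0.08 with CA77, which is within the tolerance. Of the genes detected on all arrays, 8% were at least as high with AR7 as Mt2, and 15.4% were at least as high with CA39 as Mt1.

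Of the other genes of the zinc readout, Slc30a1, which exports zinc across the plasma membrane, read 1360 units on untreated, 1299 with AR7, 1459 with CA39 and 1272 with CA77. Its differences were -0.16 with AR7, just past the tolerance and within it under 4 other settings, 0.008 with CA39 and 0.04 with CA77, beside medians of -0.05, -0.13 and -0.07 for the spots around it. Thus Mt2 with AR7 and both metallothioneins with CA39 were past the tolerance on the higher side, and Slc30a1 was not. The CA39 values were within the tolerance when arrays were scaled to their 75th percentile, at 0.11 and 0.12 for Mt1 and 0.10 and 0.12 for Mt2, whereas Mt2 with AR7 was at 0.20 in both. Mtf1 was read by a pair of detected probes. The brighter gave 1513, 1669, 1620 and 1574 units in the order untreated, AR7, CA39 and CA77, with differences of 0.05, -0.005 and 0.19, the last within the tolerance under 4 other settings. The other gave 1388, 1358, 1167 and 1290 units, with differences of -0.13, -0.35 and 0.03. Spots around this dimmer probe had a median of -0.16 with AR7. The probes therefore disagreed most with CA39, where the brighter was level with untreated and the other lower.

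Ferritin mRNA was read by very bright probes, for which Fth1 reached 51.5% and the brighter Ftl1 probe 50.1% of the scanner's saturation value, and no spot was marked saturated. The Fth1 probe, for the chain that oxidises iron on entry, read 344447 units on untreated, 401389 with AR7, 336502 with CA39 and 360074 with CA77. It was higher with AR7 by 0.19 (0.11 and within the tolerance in the deposited table) and differed by -0.03 with CA39 and 0.15 with CA77. The CA77 value was within the tolerance, but past it, at 0.19 to 0.23, in the deposited table and both processed-signal settings. The brighter probe of Ftl1, the chain that helps form the mineral core, read 353372, 390289, 352926 and 333119 units. Its differences of 0.12, -0.01 and 0.04 were all within the tolerance.

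The dimmer Ftl1 probe did not match the brighter one. It read 118795 units on untreated, 189522 with AR7, 136917 with CA39 and 166894 with CA77. Its highest value was 24.3% of saturation. AR7 and CA77 stood high, CA39 lay between them and untreated. The differences were 0.65 (1.56-fold) with AR7, 0.21 (1.15-fold) with CA39 and 0.64 (1.55-fold) with CA77, so AR7 and CA77 were 0.01 apart and CA39 lay 0.44 and 0.43 below them. Of the 20 detected spots around it, in grid row 150, 0 were past 2-fold with any compound, and their medians lay between -0.06 and 0.07. Around the brighter probe the medians came to -0.22 (AR7), -0.23 (CA39) and -0.09 (CA77), with those of AR7 and CA39 past the tolerance, and around Fth1 they were -0.12, -0.18 and -0.18. The part of these local shifts in the ferritin values was not tested. Averaging both probes gave Ftl1 a difference of 0.38 with AR7 and 0.34 with CA77. What separates the probes was not tested, and ferritin light chain has closely related gene copies, so which transcripts each probe reads is uncertain.

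Tfrc, which takes up transferrin-bound iron, was lower on every treated array by its main probe, and it is the member with the best measured values. This probe is printed at 10 places on each array. Its spots read from 17817 to 22457 units with a median of 20308 on untreated, from 15881 to 20276 with a median of 17110 on AR7, from 14789 to 17679 with a median of 16794 on CA39 and from 13080 to 16898 with a median of 15582 on CA77. The ranges of spots overlapped for AR7 and untreated, and in these raw units the CA39 and CA77 ranges lay wholly under that of untreated. After normalization the spots averaged log2 14.29 ± 0.11 (SD, n = 10 spots) on untreated, and the treated means were 14.04 ± 0.13 (AR7), 13.96 ± 0.10 (CA39) and 14.02 ± 0.12 (CA77). On this scale the highest CA77 spot, at 14.17, was above the lowest untreated spot, at 14.10, and only the CA39 range did not overlap that of untreated. Compared place by place, all 10 spots were lower than untreated with each compound. The mean difference was -0.25 ± 0.07 (SD over 10 places) with AR7, -0.33 ± 0.04 with CA39 and -0.27 ± 0.03 with CA77, or 0.840, 0.794 and 0.828 of the untreated level. The compounds differed from each other by 0.02 to 0.08 in size, within the tolerance, which is set for single spots and is wide for a mean of 10.

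**Figure D2:**
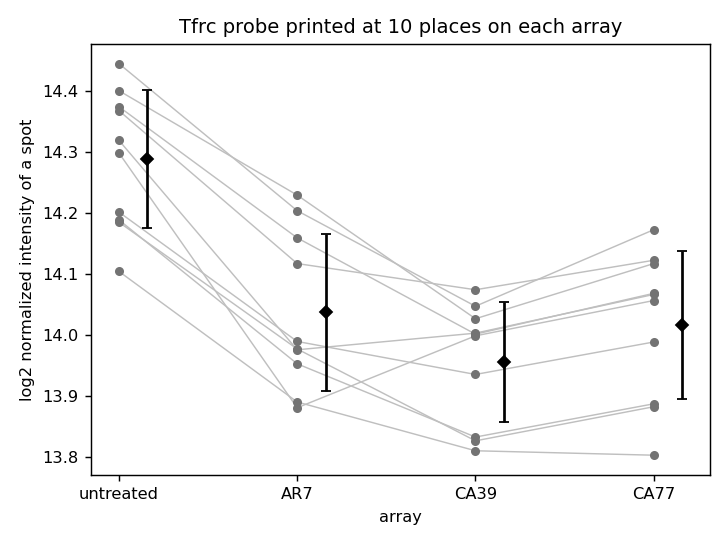
Normalized log2 intensity (y axis) of the 10 spots of the main Tfrc probe on each array (x axis), with grey lines joining spots at the same place and diamonds with bars giving the mean and SD of the 10 spots. Every line descends from the untreated array, at a mean of 14.29, to the treated arrays, at means of 13.96 to 14.04; spots share 1 RNA sample per array and are not replicate cultures.

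The spots of an array share 1 culture, so this agreement between places describes the precision of the array and not that of the treatment. A difference at least as low as that of Tfrc was held by 16% of genes for CA39, 13.6% for CA77 and 11.2% for AR7. Of the other Tfrc probes, the dimmest read 721 units on untreated, 634 with AR7, 563 with CA39 and 486 with CA77. It was lower by 0.29, 0.45 and 0.42. The remaining probe read 4390, 4108, 4691 and 3988 units, with differences of -0.16, 0.03 and 0.006, none past the tolerance. Hence 2 of the 3 Tfrc probes were lower with all compounds.

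The mRNAs of the iron-regulatory proteins differed in pattern. Aco1, whose product switches between a cytosolic aconitase and the RNA-binding form IRP1, read 331 units on untreated, 265 with AR7, 287 with CA39 and 226 with CA77. Untreated was highest, and the differences were -0.47 (AR7), -0.26 (CA39) and -0.41 (CA77), or 0.722, 0.833 and 0.752 of the untreated level. A difference as low was held by 2.83%, 22.2% and 6.41% of genes. AR7 and CA77 differed by 0.06, and CA39 lay 0.21 above AR7 and 0.15 above CA77. This was the dimmest detected member probe, a single spot, and the spots around it had medians between -0.06 and -0.005.

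Ireb2, whose product IRP2 is controlled by iron-dependent degradation, read 887 units on untreated, 975 with AR7, 762 with CA39 and 734 with CA77. CA39 was lower than untreated by 0.30, CA77 by 0.12 and AR7 was 0.04 higher, so only the CA39 value was past the tolerance. The detected spots around this probe had medians of -0.16 (AR7), -0.14 (CA39) and -0.11 (CA77), whose part in these values was not tested. Between compounds, CA39 lay 0.35 below AR7 and CA77 lay 0.17 below it. Set side by side, CA39 and AR7 differed by more than the tolerance for 6 of the 10 members, where 57.6% of genes detected on all arrays did. CA77 and AR7 did so for 4, against 35.4%, and CA77 and CA39 for 5, against 55.2%. No member differed by 2-fold between compounds, and Slc40a1 came nearest. With 1 array per compound these gaps have no interval, and values within the tolerance do not show that the compounds act alike.

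The wider zinc, iron, haem, iron-sulphur and copper genes were described next, as 97 other symbols in 11 lists. These lists were chosen with earlier results of these data known. With AR7, 3 of 88 compared genes were past 2-fold, all higher, and likewise 3 of 88 with CA77. With CA39, 10 of 89 were, 5 higher and 5 lower. The shares over all genes were the 3.06%, 3.22% and 5.29% given above. Among genes detected on all 4 arrays, a class that holds 81 of the 97, they were 0.811% (AR7), 0.845% (CA77) and 3.37% (CA39). In the order AR7, CA39 and CA77, the medians of these genes were 0.00, -0.003 and -0.02.

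**Figure D3:**
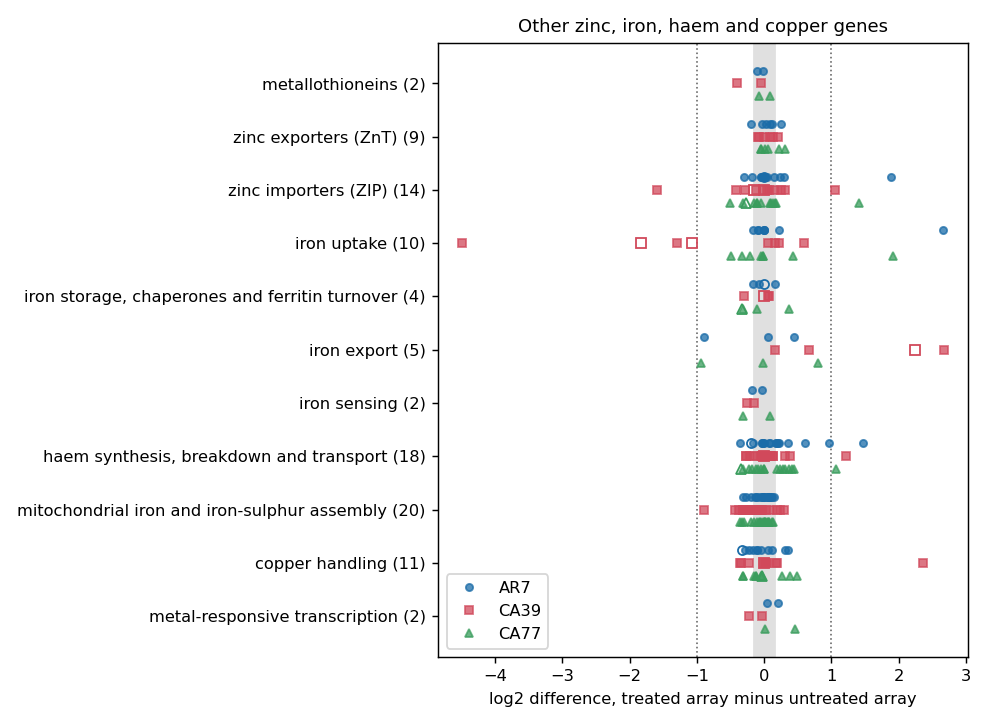
Log2 difference from untreated (x axis) of every compared gene in the 11 lists (y axis, number of genes on the array in brackets), with AR7 as circles, CA39 as squares and CA77 as triangles; open symbols are bounds, where 1 of the arrays was not well above background. The grey band is the tolerance and the dotted lines mark 2-fold. Iron uptake and iron export hold most of the CA39 points past 2-fold, with 4 lower in the former and 2 higher in the latter.

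Of the 5 other genes in the iron export list, Heph, Cp and Hfe were detected on all arrays, and these 3 were past the tolerance on the higher side with CA39, as were 23.6% of all such genes. Hfe, at 0.17, was only just past it. Hamp was detected nowhere, and Hephl1 entered through the CA39 array alone and could only be higher there. Heph, a copper oxidase that loads exported iron onto transferrin, read 648 units on untreated, 921 with AR7, 4081 with CA39 and 975 with CA77, differences of 0.45, 2.67 and 0.79. A dimmer Heph probe was 0.66 higher with CA39 and not well above background with AR7 or CA77, so the probes differ in size. Its relative Hephl1 was well above background with CA39 alone, where it was at least 4.75-fold above untreated, counted from the lowest detected signal of the untreated array, or at least 2.87-fold counted from the 1st percentile of detected signals. An offset of 50 lowered its difference to 1.35. The plasma oxidase Cp, named after its values were seen, was 0.67 higher with CA39 and lower by 0.89 with AR7 and 0.94 with CA77. A second Cp probe gave 0.76, -0.54 and -0.65.

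Among the genes of iron uptake that share a list with Tfrc, 4 of 8 compared were past 2-fold lower with CA39 and 0 higher, where all genes compared gave 1.43% and 3.86%. Another 3 were past the tolerance on the higher side, Tfr2 at 0.59, Steap2 at 0.22 and, only just, Steap3 at 0.16, whose second probe was at -0.08. Since the lists were chosen with earlier results of these data known, the contrast with all genes is only a description. The endosomal iron transporter Slc11a2, which works downstream of TFRC, read 7848 units on untreated, 8275 with AR7, 3361 with CA39 and 7022 with CA77. Its difference with CA39 was -1.29, with a second probe at -1.16, and it was 0.003 with AR7 and -0.02 with CA77. The siderophore-binding protein Lcn2, which is also an acute-phase gene, was lower by 4.49 with CA39, -0.09 from untreated with AR7 and -0.50 with CA77. Transferrin itself, Trf, was not well above background with CA39 and at least 2.10-fold lower there, counted from its own level, though an offset of 50 gave -0.82 and took it under 2-fold. The phagosomal metal transporter Slc11a1 differed in direction, 2.66 higher with AR7, 1.92 higher with CA77 and not well above background with CA39, at least 3.57-fold lower counted from its own level there and at least 2.89-fold counted from the 1st percentile of detected signals.

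**Figure D4:**
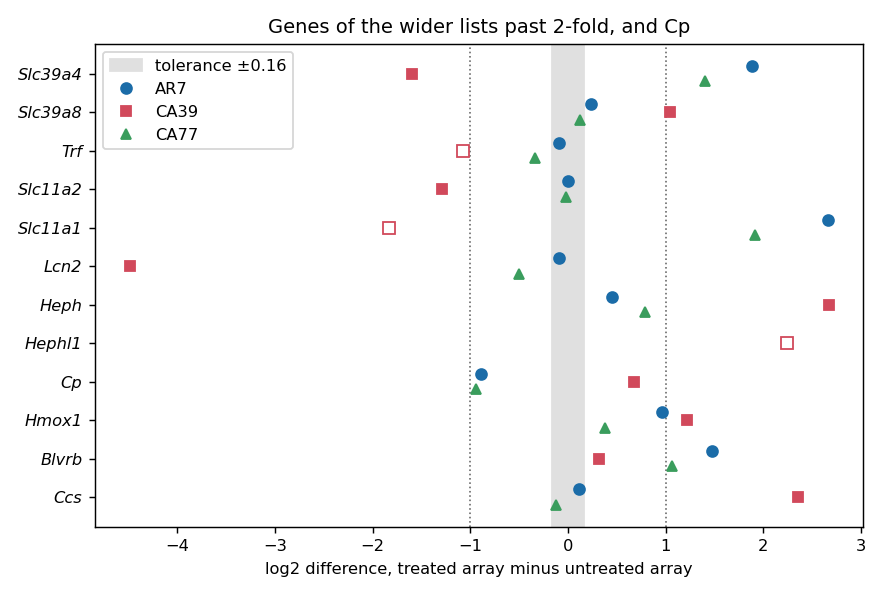
Log2 difference from untreated (x axis) of the 11 genes outside the 10 members that were past 2-fold with any compound, and of Cp (y axis), with AR7 as circles, CA39 as squares and CA77 as triangles; open squares are bounds. The grey band is the tolerance and the dotted lines mark 2-fold. For Slc39a4 and Slc11a1 the AR7 and CA77 points lie right of the band and the CA39 point left of it, while for Cp they lie the other way round. Slc39a8 and Trf, past 2-fold with CA39 alone, were under it in at least 1 other setting.

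Zinc transport outside Slc30a1 held 1 gene of the same opposed kind. Slc39a4, a zinc importer of the plasma membrane, read 1055 units on untreated, 3975 with AR7, 387 with CA39 and 2465 with CA77. Its differences were 1.88, -1.60 and 1.41, and 0 of the 27 detected spots around it were past 2-fold on any array. Of the other zinc exporters, 0 of 6 compared were past 2-fold, and the largest difference was that of Slc30a4, 0.31 with CA77. Of the other metallothioneins, Mt3 was lower by 0.41 with CA39.

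In haem turnover, Hmox1, whose enzyme frees iron from haem, read 12965 units on untreated, 26397 with AR7, 30134 with CA39 and 15123 with CA77. Hmox1 was higher by 0.97, 1.21 and 0.37, and its second probe by 0.88, 1.17 and 0.26. These differences follow the order of Slc40a1, with CA39 first, AR7 next and CA77 last, but the share of genes with this order was not counted. Other genes of the lists had other orders, such as Heph, with CA77 (0.79) above AR7 (0.45). Blvrb, a biliverdin reductase, was past 2-fold with AR7 (1.47) and CA77 (1.07) and at 0.31 with CA39. Among 20 genes of mitochondrial iron and iron-sulphur assembly 0 were past 2-fold with any compound. In the copper list, Ccs, the chaperone that gives copper to SOD1, read 251, 287, 1187 and 205 units and was 2.35 higher with CA39 by its single probe. In the remaining lists 0 genes were past 2-fold. Their largest measured differences were 0.37 for Ncoa4, the receptor for ferritin autophagy, -0.32 for Epas1, and 0.46 for Nfe2l2, each with CA77.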

How the data were processed

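The authors labelled total RNA with Cy3, hybridised it to Agilent mouse 8x60K arrays and extracted spots with Feature Extraction 10.7.3.1. Per the file headers, the values used are linear intensities of a spot and its surround, deposited without scaling between arrays, beside 0 or 1 quality marks of another kind. The deposited series table equals the background-subtracted intensity. RMA, which the submitters name, was rebuilt from these: limma 3.58.1 under R 4.3.3 corrected spot medians for background medians by normexp with no offset, gene probes were quantile normalized and put on the log2 scale, outlier spots were left out and spots of a probe averaged. The planned use of spot means was not run, since medians are what the scanner values give here. Detection required the scanner's mark for well above background on more than 50% of a probe's spots. Values not well above background were raised to the lowest detected signal of the array. Accessions were matched to RefSeq (GRCm38.p6), and the brightest probe stands for a gene. The tolerance is the square root of 2 times the median SD of the 399 probes printed 10 times. Calls are differences of at least 1 (log2). The number of arrays, 1 per group, limits the precision, and no test was run. The naming rule covers all members, list genes past 2-fold, and otherwise the largest difference of a list. For 1 list the gene so chosen is not reported here. Members and lists were chosen with earlier results of these data known. The normalization was tested on simulated data.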

Additional observations from a re-analysis of the deposited data

Results flagged for a closer look

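Differences from untreated went opposite ways with different compounds, past the tolerance of 0.16, for 9 of the 97 genes of the wider lists. This held for 0 of the 10 members. The share of all genes with such opposed differences was not counted, so these counts do not set the lists or the members apart. Of genes detected on all arrays, 36.9% (AR7), 57.1% (CA39) and 43.9% (CA77) were past the tolerance in either direction. With 1 array per compound the difference between compounds was not tested. Slc39a4 was at 1.88 (log2) with AR7 and 1.41 with CA77 but at -1.60 with CA39. Slc11a1 was at 2.66 with AR7 and 1.92 with CA77, against -1.84 with CA39, a bound at its own level, since it was not well above background there. Cp was at -0.89 with AR7 and -0.94 with CA77 and at 0.67 with CA39. Nfe2l2 was at 0.20 with AR7, 0.46 with CA77 and -0.22 with CA39. Slc48a1, a haem transporter, was at 0.61 with AR7, 0.44 with CA77 and -0.28 with CA39. Slc31a2, of the copper list, was at 0.31 with AR7, 0.48 with CA77 and -0.34 with CA39, but its second probe was at 0.04, 0.11 and -0.45, so the opposed direction rests on 1 probe. Abcb10, a mitochondrial transporter, was at -0.37 with AR7, -0.23 with CA77 and 0.39 with CA39. Flvcr1, a haem exporter, was at -0.21 with CA39 and 0.24 with CA77. Steap3 was at -0.17 with AR7, -0.21 with CA77 and 0.16 with CA39, the last only just past the tolerance, and its second probe was within the tolerance with every compound.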

How the results depend on the processing

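With 1 array per group, direction and size were compared and no test was run. Member differences were recomputed under 7 other settings and under 1 chosen after seeing the data (probes in grid rows over 160). Of 234 such values, 229 moved by less than the tolerance. None of the 16 differences past the tolerance turned in sign, and 6 of them were within it under some setting (Fth1 and Slc30a1 with AR7, Mt1 and Mt2 with CA39, Mtf1 and Slc40a1 with CA77). Of the 14 within the tolerance, 5 turned in sign under some setting. Medians moved by less than the tolerance in 45 of 45 cases. Of 54 counts, 49 were within 1.5 times the reported value. In rows over 160 the count of members past 2-fold with CA39 was 0, since the only Slc40a1 probe lies outside them, and the counts of list genes with AR7 and CA77 were 1 and 1. At a 1.5-fold threshold these list counts were 6 and 5. Slc40a1 ranged from 1.07 to 1.13 with CA39. With all probes averaged, Ftl1 was at 0.38 with AR7 and 0.34 with CA77, and Mtf1 at -0.18 with CA39. In rows over 160 Mtf1 was at -0.13 with AR7 and -0.35 with CA39, read by its dimmer probe. Of 397 list gene differences, 22 moved by more than the tolerance, mostly for dim genes. Trf with CA39 was at -0.82 with an offset of 50 and at -1.64 in the deposited table. The alternative of spot mean intensity was not run. Slide row and vehicle cannot be told apart from effects shared by all compounds, nor scan from CA77. No paired analysis was possible because each group has 1 array.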
